A study of Mus musculus with 2 samples.

Results

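The mouse miRNA genes whose number is 3000 or above are hairpins that entered the catalogue late, after small RNA sequencing became common. In the 2 hippocampal libraries of this series they comprised 553 of the 2202 miRNA genes counted. The rule used the GENCODE M21 gene name alone (Mir followed by a number of 3000 or above, with any letter or copy suffix). No measured level was part of it, but it was set with earlier results of these data known. Mir3065 and 5 genes of a miRNA cluster on chromosome 12 carry such numbers too and were left out by the same rule. At the lower limit of the numbering, the first members were Mir3057, with 93 and 90 sense counts in replicates 1 and 2, and Mir3058, with 7 and 11. The last genes outside were Mir2861, with 0 counts in both libraries, and Mir2139, with 0 and 1.

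Both libraries formed 1 group, with no treatment, age or genotype contrasted. The labels call the tissue a layer of hippocampus, of female mice of strain B6CASTF1/J at 18 to 20 months of age, and give a size range of under 30 nt. B6CASTF1/J animals are first-generation hybrids of C57BL/6J and CAST/EiJ, and the reads were placed on an assembly of the B6 parent. The libraries are numbered as biological replicates, but the tissue records name 1 donor record while giving different animal numbers, so the differences between them may be technical.

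A miRNA is cut from a hairpin in a longer transcript. In the usual route the enzyme Drosha frees the hairpin and Dicer then cuts it into a 5p and a 3p arm, one of which guides Argonaute to messenger RNAs through its seed, bases 2 to 8. Mirtrons take another route: a short intron is spliced out, its lariat is opened and the whole intron folds into a hairpin, so the splice sites set the hairpin's ends. In tailed mirtrons only 1 end of the hairpin is a splice site, and the rest of the intron hangs from the other end. Many mirtrons are young genes found in few species. Conservation was not examined here, so the common description of these late-numbered genes as mostly rodent-specific was not tested.

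RefSeq mature sequences (build GRCm38.p6) were found for 504 of the 553 members, 809 sequences in all. Those of the 8 most abundant members are shown first because these genes held most of the members' reads. The capitals mark the seed. Each count in the files belongs to a hairpin, so the arms cannot be told apart in the levels given further on.
miR-3102-5p: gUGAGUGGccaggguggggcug
miR-3102-5p.2: gGUGGUGCaggcaggagagcc
miR-3102-3p.2: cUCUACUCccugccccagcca
miR-3102-3p: gAGCACCCcauuggcuacccaca
miR-7689-5p: cCGAGGCAgccuggcuuag
miR-7689-3p: uUAGAGCCagacugccuggguuu
miR-3099-5p: cCAGCUUCcuuccagcccuug
miR-3099-3p: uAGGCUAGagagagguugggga
miR-7080-5p: gUAGGAGCuggagguggguuugg
miR-7080-3p: cAGGCUCAccccuccguucccu
miR-3475-5p: aAAUCAUGuacccccacagagg
miR-3475-3p: uCUGGAGGcacaugguuugaa
miR-3068-5p: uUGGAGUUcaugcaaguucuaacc
miR-3068-3p: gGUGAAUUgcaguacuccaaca
miR-3059-5p: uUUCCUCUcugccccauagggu
miR-3059-3p: cCUCUAGGgaagagaagguugg
miR-7044-5p: gUGUGGUGgugguggcggc
miR-7044-3p: aUGCAGCCccgacccucacag

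Mir3102 was the only gene among these 8 with 4 mature sequences. They lie end to end: 0 bases separate 5p from 5p.2 and 3p.2 from 3p, and 16 bases lie between 5p.2 and 3p.2. No seed was shared among these sequences.

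Hairpins that end at a splice site are shown next, because that position set many members apart from the other miRNA genes. The capitals mark the GU at the first bases of the intron and the AG at its last bases. In Mir7080, Mir6944 and Mir3547 the hairpin is a whole intron. In Mir7044 only the 3′ end is an intron end.
Mir7080: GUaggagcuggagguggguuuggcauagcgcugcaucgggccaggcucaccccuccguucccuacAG
Mir6944: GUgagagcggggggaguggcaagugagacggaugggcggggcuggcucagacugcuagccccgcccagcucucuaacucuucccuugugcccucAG
Mir3547: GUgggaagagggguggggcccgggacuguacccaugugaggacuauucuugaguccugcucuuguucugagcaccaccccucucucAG
Mir7044: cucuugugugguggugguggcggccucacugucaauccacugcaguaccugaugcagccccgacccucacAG

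Sense counts over all miRNA genes summed to 2255838 in replicate 1 and 4521208 in replicate 2. Levels are sense counts scaled to a common library sum of 1000000 (CPM), and a count of 0 allowed up to 1.33 CPM in replicate 1 and 0.664 CPM in replicate 2. Multimapping reads, which are a separate total in the files, made up 36.2% and 47.9% of all reads. The libraries also differed in unmapped reads, 29.0% in replicate 1 and 11.2% in replicate 2. Sense counts were 30.2% and 37.2% of all reads. The tissue label was checked against marker miRNAs. The 10 neuronal markers held 6.32% and 4.78% of sense counts, led by Mir132, Mir128-1 and Mir137. They were uneven: Mir124a-1, Mir124a-2 and Mir124a-3 had means of 1.88, 0.887 and 0.664 CPM. Mir9-1, Mir9-2 and Mir9-3 had means of 13.1, 1.11 and 81.9 CPM, and Mir138-1 had 2994 CPM. Mir124a and Mir9 each have several gene copies, and the part of multimapping reads in their low levels was not tested. Of the 5 muscle markers, Mir1a-1, Mir1a-2 and Mir133a-1 had no count, Mir206 had 34 and 119 counts, or 15.1 and 26.3 CPM, and Mir208a had 2 and 4 counts. Liver Mir122 stood at 14.6 and 43.1 CPM, and pancreatic islet Mir375 at 613 and 308 CPM. Endothelial Mir126a held 2.19% and 2.90% of sense counts, and the 2 oligodendrocyte markers held 0.682% and 0.539%. Choroid plexus Mir204 stood at 1034 and 800 CPM. The 3 microglia and leukocyte markers held 0.0993% and 0.0884%, and the 2 erythroid markers 0.0122% and 0.0120%.

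The members were many and mostly scarce. Of the 553 genes, 118 (21.3%) reached 1 CPM in both libraries, the level called detected from here on, which took 3 counts in replicate 1 and 5 in replicate 2. Among the other 1649 miRNA genes 328 (19.9%) did so, but that set mixed 621 genes with a lower Mir number or a let-7 name, of which 315 (50.7%) were detected, with 1028 genes named otherwise, of which 13 were. Of the members, 27 reached 10 CPM in both libraries and 4 reached 100 CPM. No count fell on 261 members (47.2%). The members together held 0.348% of sense counts in replicate 1 and 0.316% in replicate 2, a mean of 0.332% ± 0.0224 (SD, n = 2).

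A few genes carried most of those reads. Mir3102 alone held 21.1% of the members' summed CPM, the top 4 genes held 57.2% and the top 20 held 81.7%. Over the 118 detected members the log2 levels of the libraries had a Pearson's r of 0.95 and a Spearman rank correlation of 0.88 across genes. These genes share the 2 libraries and are not independent replicates, and the values describe agreement only.

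**Figure D1:**
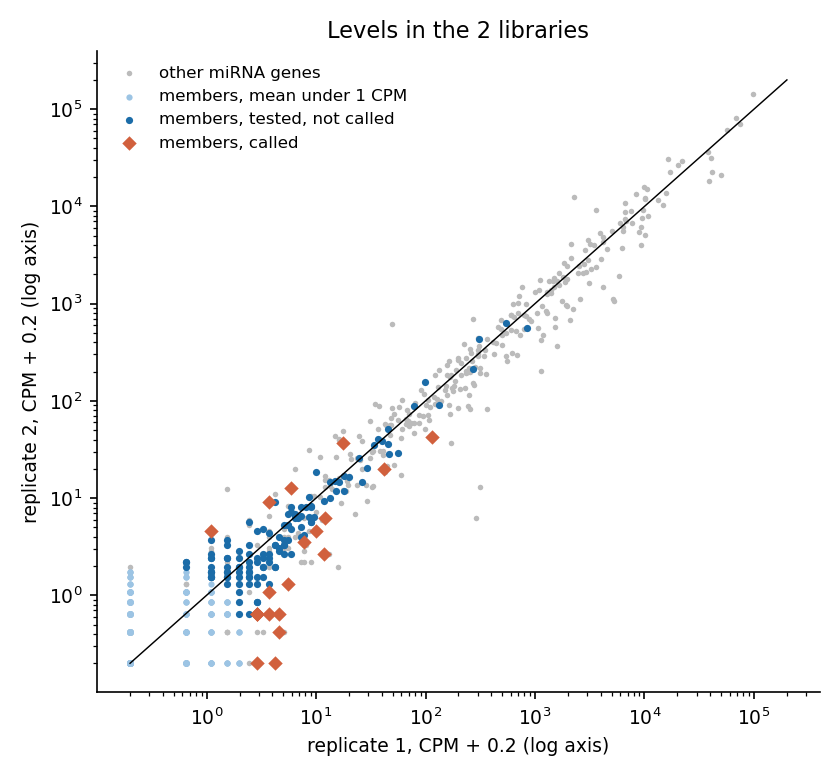
Level of every miRNA gene in replicate 1 (horizontal) and replicate 2 (vertical), as CPM plus 0.2 on log axes, with the line of equal levels; grey points are the 1649 other miRNA genes and coloured points the 553 members. Members lay at the low end, with 4 of them at 100 CPM or more in both libraries, and the 20 members called different between the libraries (diamonds) were mostly scarce genes below the line.

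The catalogue bands differed in how many genes were detected. Of the 83 members numbered 3000 to 3999, 31 (37.3%) were detected. The share was 10 of 51 (19.6%) for 5000 to 5999, 37 of 207 (17.9%) for 6000 to 6999, 35 of 180 (19.4%) for 7000 to 7999 and 5 of 32 (15.6%) for 8000 to 8999. The first band also held the largest part of the reads, 0.167% of all sense counts against 0.117% for the band of the 7000s.

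Mir3102 was the most abundant member. Its hairpin (mm10, chr7:100882306-100882409, minus strand) is a whole intron of 104 bases of Arhgef17, a gene for a guanine nucleotide exchange factor, and another annotated transcript keeps that stretch in an exon. It had 1895 counts in replicate 1, or 840 CPM, and 2524 in replicate 2, or 558 CPM. The ratio of replicate 2 to replicate 1 was 0.665, with an exact 95% interval of 0.626 to 0.706, short of the 2-fold difference required for a call.

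Mir7689 followed with 1228 and 2855 counts, or 544 and 631 CPM. It lies at chr5:36301570-36301628 on the plus strand, antisense to Sorcs2, which encodes a sorting receptor of the sortilin family, and inside no gene of its own strand. Mir3099 had 699 and 1952 counts, or 310 and 432 CPM. It sits at chr7:6803587-6803670 on the plus strand in a long intron of Usp29, an imprinted gene for a ubiquitin-specific protease. Both genes were higher in replicate 2, by 1.16-fold and 1.39-fold, so the order of the leading pair, Mir3102 and Mir7689, was reversed between the libraries.

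Mir7080 was the fourth, with 610 and 972 counts, or 270 and 215 CPM. Its hairpin is a whole intron of 67 bases of Cpne7 (chr8:123130106-123130172, plus strand), a gene for a calcium-dependent phospholipid-binding protein. Below it came Mir3475, outside genes on chromosome X, with 223 and 712 counts, or 98.9 and 157 CPM. Mir3068 had 300 and 412 counts, or 133 and 91.1 CPM. The annotation also lists a snoRNA-typed gene of the same name over the Mir3068 hairpin, so a read from either transcript would have the same sequence.

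Mir3059, in an intron of the glycosyltransferase gene Mgat4c, had 178 and 404 counts, or 78.9 and 89.4 CPM. Mir6540, in an intron of Gap43, which encodes a protein of growing axons, had 102 and 233 counts, or 45.2 and 51.5 CPM. The 95% Poisson intervals of the libraries overlapped for both of these genes. Mir3086, in an intron of the heat shock protein family gene Hspa12a, had 127 and 130 counts, or 56.3 and 28.8 CPM, and its intervals did not overlap. Mir8112, in an exon of Krcc1, had 76 and 158 counts, or 33.7 and 34.9 CPM.

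Further down, Mir6944, a whole 96-base intron of Dbn1, which encodes the dendritic spine protein drebrin, had 104 and 127 counts, or 46.1 and 28.1 CPM. Mir6769b, at an intron end of the synaptic vesicle priming gene Unc13a, had 55 and 115 counts, or 24.4 and 25.4 CPM. Mir6982 lies at an intron end of Camk2a, the gene for the alpha subunit of the synaptic kinase CaMKII, and had 59 and 65 counts, or 26.2 and 14.4 CPM. Mir7220 lies 4140 bases from it in the same gene and away from intron ends, and had 6 counts in each library. Host transcripts were not measured in this series, so no relation of a miRNA to its host's level could be computed.

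**Figure D2:**
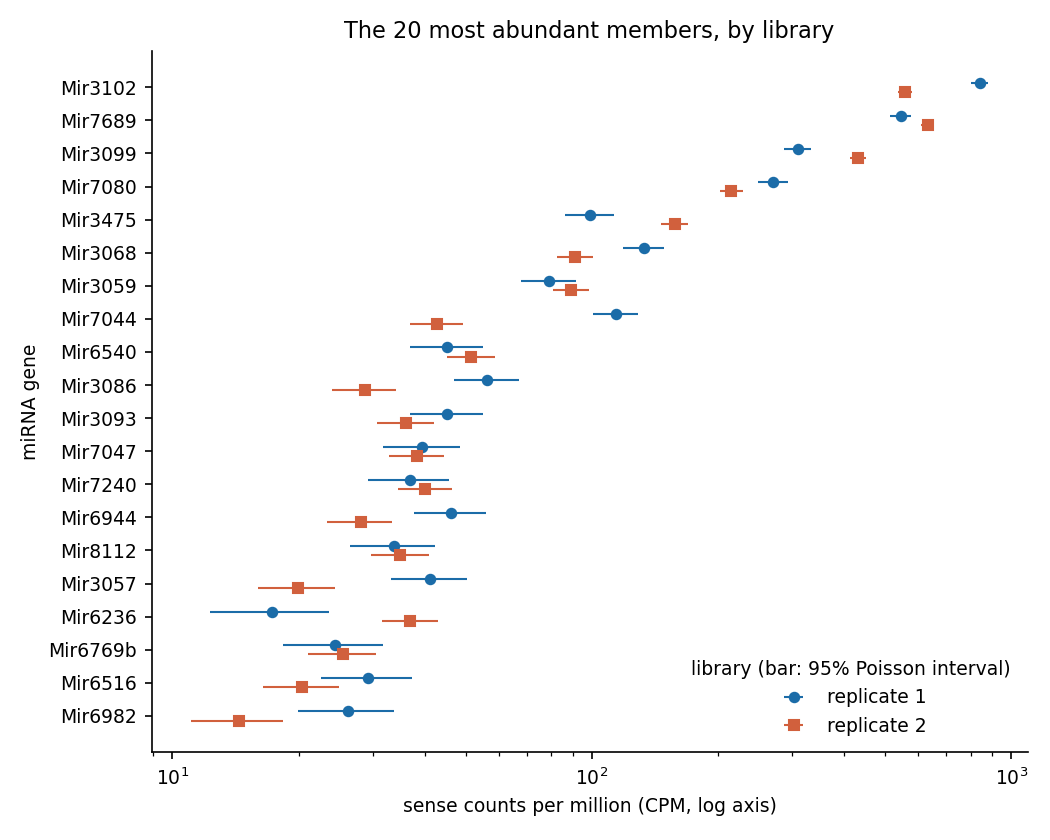
Sense CPM (log axis) of the 20 most abundant members in replicate 1 (circles) and replicate 2 (squares), with exact 95% Poisson intervals, which cover counting error only. The first 4 genes stand above 200 CPM in both libraries, and Mir7044 shows the largest fold difference among the 20, 114 against 42.7 CPM.

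Many of the hairpins ended where an intron ends. In 231 of the 553 members the 3′ end lay within 10 bases of the 3′ end of an annotated intron on the same strand, and in 202 of them on the very same base. Among the 1649 other miRNA genes 13 lay within 10 bases, 9 of them on the same base. The counted levels play no part in these positions, which come from the annotation alone.

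Of the 231 hairpins, 21 reached both ends of the intron, as in mirtrons, 16 of them on the same base at both ends, and 210 reached the 3′ end only, as in tailed mirtrons. The introns of the first kind were 67 to 137 bases long, with a median of 86. Those of the second kind had a median of 572 bases and ran up to 36269. Hairpins at an intron's 3′ end made up 103 of the 207 members numbered in the 6000s and 108 of the 180 in the 7000s, but 15 of the 83 in the 3000s, 5 of the 51 in the 5000s and none (0) of the 32 in the 8000s.

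**Figure D3:**
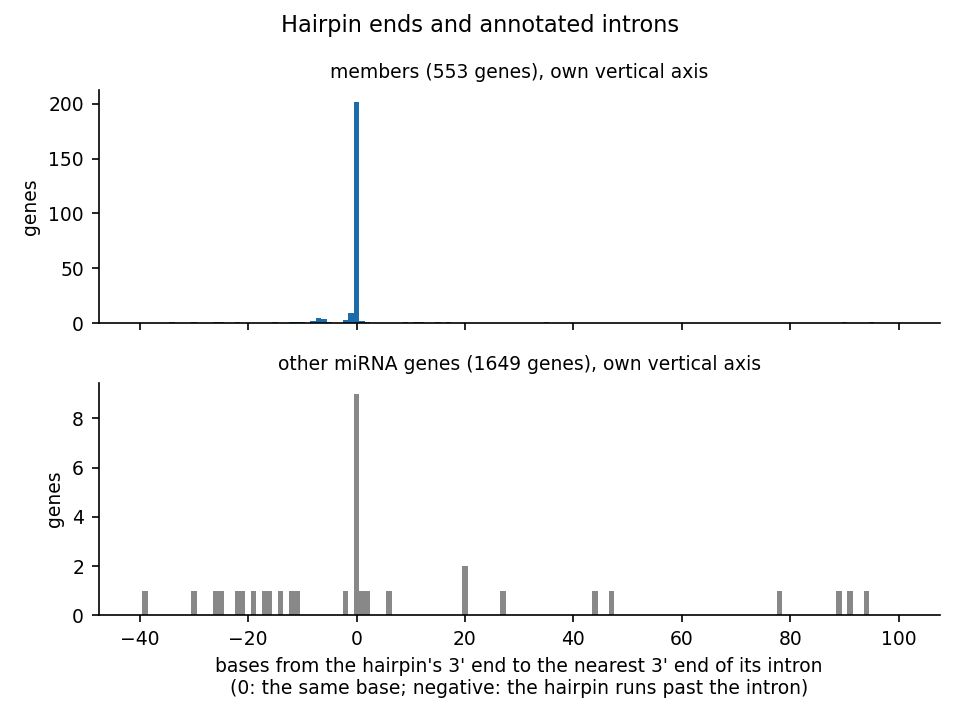
Number of miRNA genes (vertical, separate scales) by the distance in bases from the hairpin's 3′ end to the 3′ end of its intron, members above and other miRNA genes below; distances from −40 to 100 are drawn. The single bar at 0 holds 202 members, against 9 of the other genes.

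The mature sequences carried the intron's composition. In hairpins at an intron end, the 3p arms had a median of 71.4% C and U, against 50% in the 3p arms of other members. Their 5p arms had a median of 33.3% C and U, against 45.5%, and 44.0% G. In these hairpins 152 of 204 3p arms (74.5%) ended in AG, against 21 of 206 (10.2%) elsewhere, and 146 of 204 (71.6%) ended on the last base of the hairpin, against 81 of 206 (39.3%). The printed Mir7044 shows this: its 3p arm, aUGCAGCCccgacccucacag, is the last stretch of the hairpin and runs to the AG. Pyrimidines before an AG are the usual make-up of an intron's 3′ end, so this composition is not a measure independent of the position.

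More of these members than of the rest were detected. Of the 231 members at an intron's 3′ end 70 (30.3%) were detected, against 48 of the other 322 (14.9%). Among members inside a host gene but not at an intron's 3′ end, 36 of 191 (18.8%) were detected. With 1 count in either library as the criterion the values were 174 of 231 (75.3%) and 95 of 191 (49.7%). At 10 CPM in both libraries the numbers were alike, 10 of the 231 and 11 of the 191. Members at an intron end had shorter hairpins, with a median of 66 against 81 bases for the 191, and a higher GC content, with a median of 56.8% against 52.9%, and the part of either in detection was not tested.

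The 21 members that reached both intron ends varied widely in level. Mir3102, Mir7080, Mir6944 and Mir3547 were the 4 detected ones. Mir3547, which lies in Baiap3 and is a whole intron of 88 bases, had 45 and 73 counts, or 19.9 and 16.1 CPM. Mir7032, in Hip1r, whose hairpin starts 8 bases from the intron's start, had 10 and 2 counts. Mir7068, a whole intron of Cherp, had 2 and 7. No count fell on 8 of the 21. The set held a mean of 0.100% of all sense counts, and 0.0306% without Mir3102, beside 0.0502% for the 210 members at the 3′ end only.

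By place in the annotation, 292 members lay in introns and 130 touched an exon of a host on their own strand, in 410 distinct host genes. Of these, 70 (24%) and 36 (27.7%) were detected. Of the 51 members antisense to a gene 4 (7.84%) were detected, and of the 80 outside genes 8 (10%). The scarce classes still held abundant genes: Mir7689 is antisense, as is Mir7240, opposite the kinase gene Mast3, with 83 and 181 counts, or 36.8 and 40.0 CPM.

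**Figure D4:**
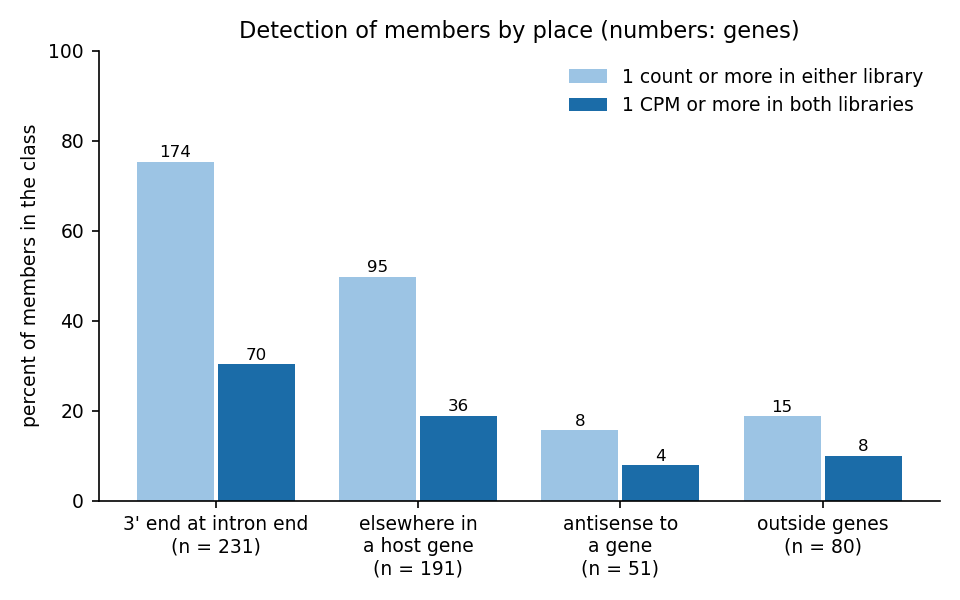
Percent of members with at least 1 count in either library (light) and with 1 CPM or more in both (dark), by place of the hairpin; numbers over the bars are genes and n is the class size. Of the members at an intron's 3′ end 70 of 231 were detected, against 36 of 191 elsewhere in a host gene, 4 of 51 antisense to a gene and 8 of 80 outside genes.

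In 12 host genes there were 2 members each, and their levels could differ. In Ankrd52, Mir6915 had 12 and 23 counts while Mir6914, also at an intron end, had 4 and 2. In B3galt1, Mir7224 had 27 counts in each library and Mir6335 had none (0). In Skiv2l, Mir6971 had 7 and 8 counts, and the whole-intron hairpin Mir6970 had 2 and 2. These pairs were picked after their values were seen.

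Some members lie beside well-known brain miRNAs. Mir3093, 340 bases from Mir9-1 on the same strand, had 102 and 163 counts, or 45.2 and 36.1 CPM. Mir9-1, one of 3 genes of a miRNA of neural progenitors and neurons, had 6.21 and 19.9 CPM. Mir3078 lies 443 bases from Mir124a-1, on the same strand in an exon of its host transcript, and had 8 and 40 counts, or 3.55 and 8.85 CPM, against 0.887 and 2.88 CPM for Mir124a-1. Both neighbours have further gene copies, and the part of multimapping reads in their low levels was not tested.

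Some members had most of their reads on the opposite strand, where a partner hairpin lies. Antisense counts fell on 15 members, and 660 of the 789 such counts belonged to members opposite another hairpin. Mir3074-2 had 1 and 0 sense counts and 106 and 257 antisense counts, the same numbers as the sense counts of Mir24-2, whose hairpin it faces. Mir3074-1 had 14 and 29 sense counts, and its 70 and 117 antisense counts were the sense counts of Mir24-1. Mir3107 faced Mir486 in the same way, with 4 and 0 sense counts and 36 and 72 antisense counts. In the deposited unstranded column all 3 of these members read 0, so only the stranded columns hold counts for them. Whether strand alone assigns these reads to the right hairpin was not tested.

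Other members had antisense reads with no hairpin annotated opposite. Mir5620, antisense to Clcn4, had 17 and 18 sense counts and 17 and 17 antisense counts. Mir8105 had no sense count and 2 and 7 antisense counts, and Mir7654 had 1 and 1 sense counts and 0 and 9 antisense counts. Mir5620 was named after its values were seen.

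**Figure D5:**
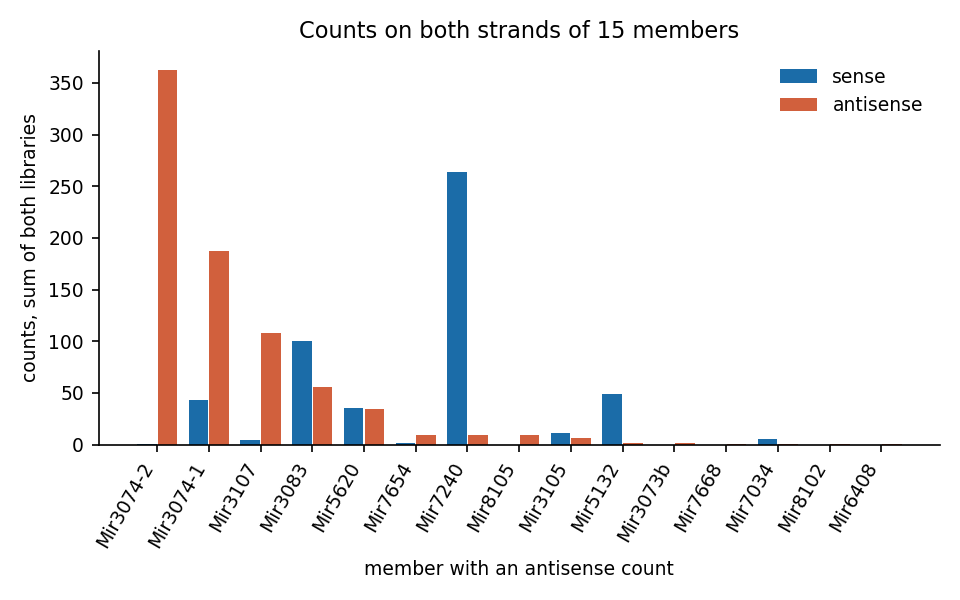
Sense and antisense counts, summed over both libraries, of the 15 members with any antisense count. The antisense bars of Mir3074-2 (363 counts), Mir3074-1 (187) and Mir3107 (108) equal the sense counts of Mir24-2, Mir24-1 and Mir486, and Mir5620 has nearly equal bars of 35 and 34.

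Members that overlap other small RNA genes on their own strand need the same care. Mir6516 lies in Snhg20 over an annotated scaRNA, a guide RNA of Cajal bodies, and had 66 and 92 counts, or 29.3 and 20.3 CPM. Mir5121 overlaps Snord33, a snoRNA that guides methylation of ribosomal RNA, and had 30 and 65 counts, or 13.3 and 14.4 CPM. Mir3069 overlaps Scarna13 and had 34 and 53 counts, or 15.1 and 11.7 CPM. Whether these reads came from the miRNA or from the longer RNA was not tested.

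Few counts fell on members with near copies. The rule took in 12 groups of genes with 1 number and different suffixes, 29 members in all, of which 7 had a count. Apart from Mir3074-1, no named gene of these groups had a detected level: Mir7036 had 6 and 2 counts, its namesake Mir7036b had 0 and 3, and in the group of 7 Mir3473 genes Mir3473g had 0 and 3 and Mir3473d had 0 and 1. More widely, 44 members shared a stretch of 20 bases with another miRNA gene and 3 of these were detected, against 115 of the 509 that shared none. Reads that fit several places are a separate total in these files, and their part in the low counts was not tested.

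Most seeds of the members were their own among the sequences compared. The 809 mature sequences held 728 distinct seeds. Of these sequences, 621 had a seed found in no other gene compared, and 64 shared a seed with a miRNA outside the set. The same shares are not given for the other miRNA genes, so these numbers do not set the members apart. Only genes with a RefSeq mature sequence could be compared, and 53 RefSeq sequences were in no single gene of the files. The sequences below show a pair of members with 1 seed, picked after the levels were seen.
miR-7689-5p: cCGAGGCAgccuggcuuag
miR-5620-5p: aCGAGGCAggggcuuugacugug
The sharing genes stood far apart in level, at a mean of 588 CPM for Mir7689 and 5.76 CPM for Mir5620. The seed of miR-3102-5p is also that of miR-702-5p, whose gene stood at a mean of 148 CPM against 699 CPM for Mir3102. In Zeb2, Mir5129 had 22 and 83 counts. The seed of its 3p arm is that of miR-455-5p, whose gene stood at a mean of 1114 CPM against 14.1 CPM for Mir5129. Levels of genes are sums over arms, so they do not give the level of the arm with the shared seed.

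The libraries were then compared gene by gene. The test was exact, conditional binomial and two-sided, with p-values adjusted by Benjamini-Hochberg over the 495 miRNA genes whose mean reached 1 CPM. A gene was called at an adjusted p under 0.05 and a difference of 2-fold or more. Such a test sets the reads of 1 library against those of the other and has no replicate check. Over all genes 87 of 495 were called (17.6%), and of the 148 members tested 20 were called (13.5%). The difference between these shares was not tested. Tested members had a median of 22.5 counts over both libraries, against 257 for all tested genes, and fewer counts make a call harder to reach. Whatever the p-value, 46 of the 148 members and 128 of the 495 genes differed by 2-fold or more. Higher in replicate 2 were 4 members, with 3.84% called higher over all genes, and lower were 16, with 13.7% called lower over all genes. The median log2 ratio of replicate 2 to replicate 1 was −0.33 for members and −0.19 for all tested genes.

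The split of directions moved with the scaling. TMM factors from edgeR gave 5 members higher and 12 lower. Size factors from DESeq2 gave 6 higher and 8 lower, and the median of all genes shifted to −0.09 and −0.01, respectively. Of the 20 calls, 12 held under both scalings, and none (0) changed sign. With edgeR's exactTest and a common dispersion estimated from both libraries, no member (0) was called and 5 had an unadjusted p under 0.05, while 3 of all 495 genes were called and 22 had such a p.

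Few of the called members were abundant. Mir7044, at an intron end of the Ras exchange factor gene Rasgef1a (chr6:118085192-118085263, plus strand), had 257 counts or 114 CPM in replicate 1 and 193 counts or 42.7 CPM in replicate 2. It was 2.67-fold lower in replicate 2 (Benjamini-Hochberg adjusted p = 2.42e-24, exact conditional binomial test). Mir6236, outside genes on chromosome 9, had 39 and 167 counts, or 17.3 and 36.9 CPM, and was 2.12-fold higher (adjusted p = 1.58e-05, same exact test). Both calls held under the TMM and DESeq2 scalings. Mir3057, in Apba3, had 93 and 90 counts, or 41.2 and 19.9 CPM. It was 2.07-fold lower (adjusted p = 3.75e-06, same exact test), and fell short of 2-fold under both other scalings.

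The other called members had fewer than 15 CPM in both libraries. Mir3097 in Rgs12, with 13 and 57 counts, and Mir3078, with 8 and 40, were higher in replicate 2 by 2.13-fold and 2.38-fold. Mir3060 had 2 and 20 counts, a ratio of replicate 2 to replicate 1 of 4.99 with an exact 95% interval of 1.21 to 44.0. Lower in replicate 2 were Mir7687, with 26 and 11 counts, by 4.62-fold, and Mir6989 in the kinase gene Map4k2, with 12 and 5, by 4.56-fold. Mir7224, with 27 counts in each library, Mir3061, with 22 and 20, Mir7666, with 17 and 15, and Mir5130, with 8 and 4, were lower by 2.00-fold to 3.79-fold and lost their calls under DESeq2 scaling.

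The scarcest calls rest on a handful of reads. Mir6940 at an intron end of Cep170b had 9 counts in replicate 1 and 0 in replicate 2, at least 6.01-fold lower against a floor of 3 counts in replicate 2. Mir7075, in Terf2, had 6 and 0, at least 4.01-fold lower against the same floor. Mir3105, in Shank2, the gene for a postsynaptic scaffold, had 10 and 1 counts, a ratio of replicate 2 to replicate 1 of 0.0499 with an exact interval of 0.00115 to 0.351. Mir7032 had 10 and 2, a ratio of 0.0998 with an interval of 0.0106 to 0.468, and Mir6939, in the kinase gene Akt1, had 8 and 2, a ratio of 0.125 with an interval of 0.0129 to 0.625. Mir6906, Mir6999 and Mir7036 each had 6 and 2, a ratio of 0.166 with an interval of 0.0164 to 0.930, and were not called under DESeq2 scaling.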

How the data were processed

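Small RNA libraries of total RNA were analysed from the authors' deposited raw counts, whose rows are miRNA genes and whose files each hold 1 library. They used mm10 with GENCODE M21 genes, per the notes deposited beside the counts. Which aligner and counter made them is not given in the sources used here. Each file lists unstranded, sense and antisense counts after 4 rows of totals, which stayed out of library sizes and tests; that the third column is sense was read from the values. Sense counts were scaled to CPM on the column's gene sum, not by hairpin length. Hosts, exons, introns and overlaps came from GENCODE M21, mature and hairpin sequences from RefSeq (GRCm38.p6). Means and SDs are over both libraries. Poisson and ratio intervals are exact at 95%, and a count of 0 allows up to 3 counts. These cover counting error only, since PCR copies of a molecule count as separate reads. Log2 ratios and fold changes between libraries had 0.5 counts added, ratios printed with an interval had none, and log2 levels a pseudocount of 1 CPM. Named were the 20 members of highest mean CPM; every called member; up to 6 members reaching both intron ends with a count in both libraries; the 5 highest in antisense counts where these exceeded sense counts; members of copy groups with a count; and up to 6 overlapping another hairpin or small RNA gene. Results for 2 members are not reported here. The members and lists were chosen with earlier results of these data known. Alternatives were other scalings, detection limits, the unstranded column, other distances to intron ends and leaving out each library. Tools were Python 3.11.15, SciPy 1.17.1, R 4.3.3, edgeR 4.0.16 and DESeq2 1.42.0.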

Additional observations from a re-analysis of the deposited data

How the results depend on the processing

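The number of detected members depended on the limit: 27 at 10 CPM in both libraries, 199 with 1 count in both and 69 with CPM on all reads, against 118. The members' share of sense counts was 0.111% of all reads, 0.365% in the unstranded column and 0.262% without Mir3102, against 0.332%. Called with edgeR's exactTest were 0 members and 3 of all genes, against 20 and 87. Its dispersion already held the difference between the libraries, so few calls were built in. In single libraries, leaving out the other, hairpins in introns were detected at 29.8% and 30.1%, and members at an intron's 3′ end at 37.2% and 38.5%. With 1 count in either library these were 62.7% for introns and 66.2% for exons. Within 20 bases, 38 members reached both intron ends, and 21 other genes reached the 3′ end, the latter setting chosen after seeing the data, as was leaving out a library for members at an intron's 3′ end. The members' share without replicate 1 and without replicate 2 was 0.316% and 0.348%. A mean of 2 libraries cannot move by 1 SD when either is left out, so such values, for the share and for single genes, say nothing of stability. The 41 other values were close to the main ones: counts within 1.5 times, percentages detected within their exact interval. In the unstranded column the levels of 40 named members stayed within 1 SD and those of 10 moved. These labels do not measure stability either. Mir3107 and Mir3074-2 fell to 0 and still counted among the 40, since a count in only 1 library makes the SD exceed the mean. Mir7047 counted as moved, from 38.9 to 42.5 CPM, because its SD was small. The unstranded column sums to 2075869 and 4102499 gene counts, below the sense sums. Equal counts therefore give higher levels and shares there. Depth limits scarce genes: 67 members had 1 or 2 counts in all, below what either library can rank.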
